A study of Felis catus with 6 samples.

Results

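The genes described here are 8 regulators of chromatin, chosen by symbol from the 633 genes of the authors' deposited table: the coactivators EP300, CREBBP and TRRAP and the remodeler subunits ARID1A, ARID1B, BPTF, BAZ2A and CECR2. The cells are PETCC2610, a kidney line of the cat, and their polyA RNA was sequenced in 2 groups of 3 libraries. The DOX group holds cells made senescent with an agent that the labels abbreviate as DOX, and the DOX+PeptideE group holds cells given the same agent and peptide E, which the series title traces to a fermentation by Bifidobacterium adolescentis LA20-k9. Both groups thus carry DOX, cells without it were not analysed here, and the labels give no dose, no time and no statement of how the cultures of the line were separated. The authors listed a gene only if they called it different between these 6 libraries, so the difference between the groups chose all 8 genes. Their differences are therefore given below as a description, and no p-value or call is used to support them. All 8 were listed as higher with peptide E.

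Coactivators and remodelers act on the same substrate in different ways. EP300 and CREBBP encode p300 and CBP, paired acetyltransferases that are recruited by transcription factors to enhancers and promoters and acetylate histones there. TRRAP encodes a very large scaffold protein without kinase activity that connects activators to the acetyltransferase complexes SAGA and TIP60. SWI/SNF complexes move or evict nucleosomes with the energy of ATP, and ARID1A and ARID1B are alternative subunits, of which a complex holds only one. ISWI motors slide and space nucleosomes and are directed by large partner proteins. BPTF is the defining partner in the NURF complex, BAZ2A (also called TIP5) in the NoRC complex that silences ribosomal RNA genes, and CECR2 in the CERF complex. In senescent cells p300 has been linked to the formation of new enhancers, and in kidney cells p300 and CBP are known as coactivators of SMAD3.

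The 6 libraries were not equally spread. In the 242 tested genes listed higher, the median fold over the DOX mean was 1.45, 2.02 and 2.47 in peptide E replicates 1 to 3, so replicate 1 stood nearest to the DOX libraries. Depth per library is unknown, because the values carry no read counts, and the values have no stated unit. The text calls them expression values. Of 17 tubular epithelial markers, 5 were listed, all lower, with a summed value of 864 to 1100 across the DOX libraries and 580 to 783 across the peptide E libraries. Of all 633 listed genes, 340 were listed lower. The sum was almost wholly that of KRT18 and KRT7, with DOX means of 589 and 415. KRT19, AQP1 and HAVCR1 had DOX means of 2.60, 2.98 and 1.21. Limma called 3 of these 5, namely KRT7, KRT18 and KRT19. Over all 499 tested genes it called 355, of which 237 were higher. Of 12 fibroblast markers S100A4 alone was listed, lower, at 249 to 274 and 143 to 188, and none of 8 endothelial and 8 immune cell markers was listed, so their values were not analysed here. The part of these markers in the results below was not tested. In bulk libraries fewer cells of a type and less RNA per cell cannot be told apart.

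EP300 had expression values of 2.26, 2.51 and 2.21 in DOX replicates 1 to 3 and of 2.95, 5.14 and 7.11 in peptide E replicates 1 to 3. The 3 DOX libraries lay close together, the 3 peptide E libraries all lay above them, and peptide E replicate 1 was only 0.44 above the highest DOX library. The mean went from 2.33 ± 0.161 to 5.07 ± 2.08 (SD, n = 3 each), a ratio of means of 2.18. CREBBP, its paralog, stood at 2.68, 2.64 and 2.45 with DOX and at 3.53, 5.26 and 6.77 with peptide E. Here too the groups did not overlap and replicate 1 was the lowest of the peptide E libraries. The CREBBP mean went from 2.59 ± 0.123 to 5.19 ± 1.62 (SD, n = 3 each), a ratio of 2.0.

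TRRAP was at 1.69, 1.96 and 1.92 with DOX and at 2.79, 4.06 and 5.29 with peptide E, again in the same order of the peptide E libraries and without overlap. Its mean went from 1.86 ± 0.146 to 4.05 ± 1.25 (SD, n = 3 each), and its ratio of 2.18 equalled that of EP300 at this precision. The sum of the 3 coactivators was 6.58 to 7.11 in the DOX libraries and 9.27, 14.5 and 19.2 in peptide E replicates 1 to 3.

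**Figure D1:**
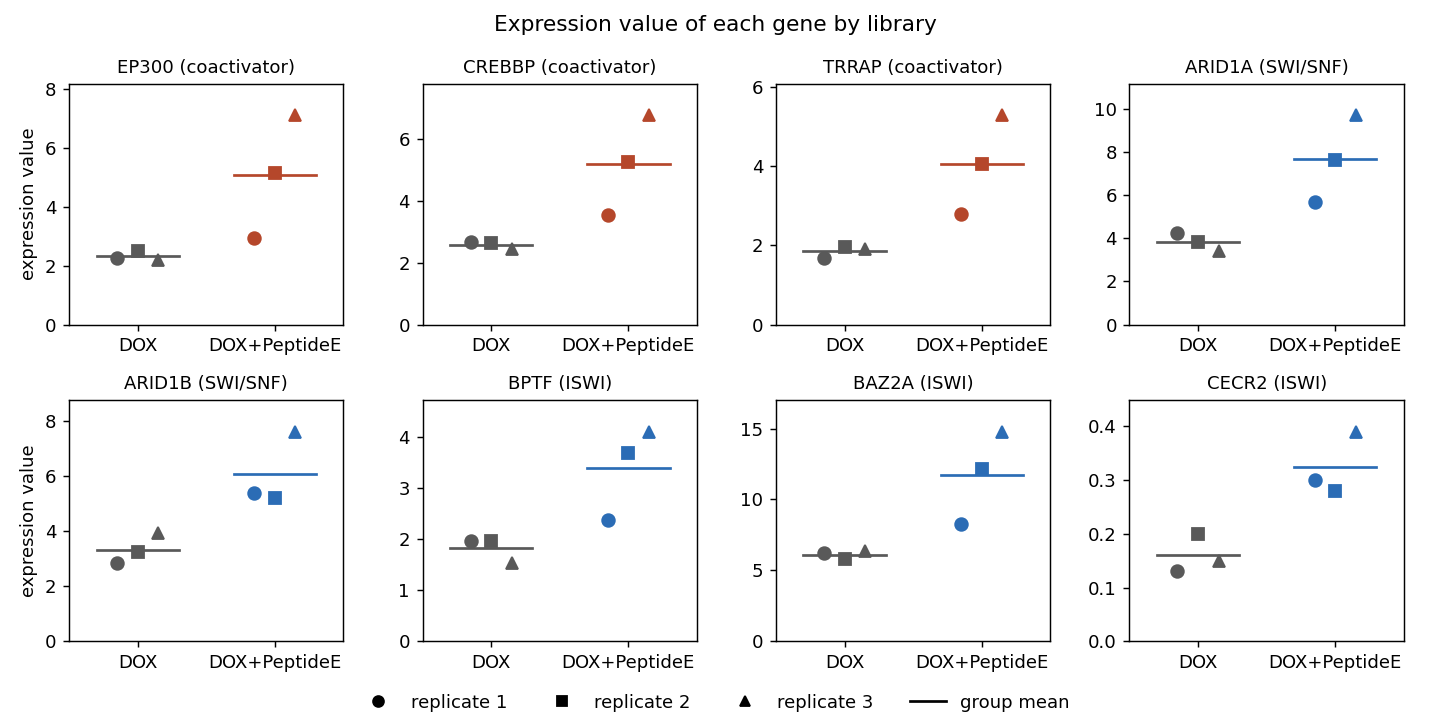
Expression value (vertical axis, no stated unit, from 0) of each of the 8 genes in the 3 DOX and the 3 DOX+PeptideE libraries; symbols mark the replicate number and lines the group means. All 3 peptide E libraries sit above all 3 DOX libraries in each panel, and replicate 3 is the highest peptide E library in all 8.

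Of the SWI/SNF subunits, ARID1A had values of 4.24, 3.83 and 3.43 in DOX replicates 1 to 3 and of 5.66, 7.60 and 9.70 in peptide E replicates 1 to 3. Its groups were 1.42 apart at their nearest libraries, and the mean went from 3.83 ± 0.405 to 7.65 ± 2.02 (SD, n = 3 each), a ratio of 2.0. ARID1B had 2.82, 3.24 and 3.91 with DOX and 5.37, 5.20 and 7.60 with peptide E. Within the DOX group the libraries therefore ran in opposite orders in these 2 genes: DOX replicate 1 was the highest for ARID1A and the lowest for ARID1B. ARID1B went from 3.32 ± 0.550 to 6.06 ± 1.34 (SD, n = 3 each), and its ratio of 1.82 was the lowest of the 8 genes. The summed value of ARID1A and ARID1B was 7.06, 7.07 and 7.34 in the DOX libraries, a narrower range than that of either gene, and 11.03, 12.8 and 17.3 with peptide E.

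Of the ISWI partners, BAZ2A was at 6.19, 5.80 and 6.35 with DOX and at 8.29, 12.2 and 14.8 with peptide E. It had the highest value of the 8 genes in each of the 6 libraries, and its mean went from 6.11 ± 0.283 to 11.7 ± 3.27 (SD, n = 3 each), a ratio of 1.92. BPTF was at 1.96, 1.96 and 1.53 with DOX and at 2.38, 3.69 and 4.10 with peptide E. Its nearest libraries were 0.42 apart, the smallest gap among the 7 genes with a mean of at least 1. The BPTF mean went from 1.82 ± 0.248 to 3.39 ± 0.898 (SD, n = 3 each), a ratio of 1.87. CECR2 stood far below the others, at 0.13, 0.20 and 0.15 with DOX and at 0.30, 0.28 and 0.39 with peptide E. The mean of 0.160 ± 0.0361 went to 0.323 ± 0.0586 (SD, n = 3 each), a ratio of 2.02, but values this low, given with 2 decimals and at unknown depth, fix a ratio poorly. CECR2 was below the filter for testing, which asked that the mean reach 1 in either group or both.

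With DOX the expression values fell in the order BAZ2A, ARID1A, ARID1B, CREBBP, EP300, TRRAP, BPTF and CECR2. ARID1A and ARID1B overlapped in this group, as did CREBBP and EP300, and TRRAP and BPTF. With peptide E the order of the means was the same, and all neighbours overlapped except BPTF and CECR2. The unit of the values is not stated, so this order is that of the deposited values and not of transcript numbers. The coactivators spanned 1.86 to 2.59 with DOX, between BPTF below them and the SWI/SNF subunits above.

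The difference between the groups was similar in size across the classes. Ratios of means were 2.0 to 2.18 in the 3 coactivators, 1.82 and 2.0 in the SWI/SNF subunits and 1.87 to 2.02 in the ISWI partners. On the log2(value + 1) scale, on which changes of low genes come out smaller, limma gave log2 fold changes of 0.81 ± 0.24 (SE) for EP300, 0.75 ± 0.21 for CREBBP, 0.79 ± 0.20 for TRRAP, 0.82 ± 0.20 for ARID1A, 0.70 ± 0.19 for ARID1B, 0.62 ± 0.20 for BPTF and 0.81 ± 0.20 for BAZ2A. The largest distance was that between ARID1A and BPTF. Each standard error is that of 1 gene between the groups. It does not measure a difference between 2 genes, which share the 6 libraries. Without peptide E replicate 1 these log2 fold changes were 0.76 (ARID1B) to 1.09 (EP300), and without replicate 3 they were 0.50 (BPTF) to 0.65 (ARID1A). The median of the coactivators minus that of the 4 tested remodelers was 0.04 on this scale. Over the other settings it ranged from -0.04 (5 added to the values in place of 1) to 0.14 (0.1 added). With 1 library left out it ranged from -0.02 to 0.09, so on this scale it had no steady sign. The added number thus moved it, as the coactivators have low values. In the authors' deposited table the median log2 fold change was 0.82 for the 3 coactivators and 0.70 for the 5 remodelers. This difference was not tested.

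All 7 tested genes passed limma's threshold as higher (Benjamini-Hochberg adjusted p under 0.05 over 499 tested genes), beside 47.5% of all tested genes called higher and 71.1% called in either direction. The tested genes called higher numbered 237, and 242 of the tested genes were listed as higher. The groups did not overlap in any of the 8 genes, beside 43.4% of all listed genes with every peptide E library above every DOX library. That share was 275 genes, while 293 genes were listed as higher. Since the same contrast selected the table, nothing is read from these counts. Without peptide E replicate 2 only 4 of the 7 passed, and EP300, CREBBP and BPTF did not. Without DOX replicate 3 BPTF did not pass and the other 6 did.

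In the authors' deposited table, the fold change was 1.77 for TRRAP, 1.76 for EP300, 1.67 for CECR2, 1.63 for each of ARID1A, CREBBP and ARID1B, 1.56 for BAZ2A and 1.53 for BPTF. The smallest fold change the authors' deposited table holds is 1.5, so BPTF lay just inside that limit, and genes outside it were not analysed here. Among the 293 genes listed higher there, TRRAP ranked 86, EP300 88 and BPTF 258. The median log2 fold change in the authors' deposited table was 0.71 over the 8 genes and 0.71 over all genes listed higher. An adjusted p under 0.05 stood beside 7 of the 8 in the authors' deposited table. Such a p stood beside 206 of the 293 genes listed higher there. As a share of all listed genes, lower ones included, these 206 were 32.5%. Nothing is read from this count either, as the same contrast selected the table. CECR2 had an unadjusted p of 0.0491 and an adjusted p of 1.

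**Figure D2:**
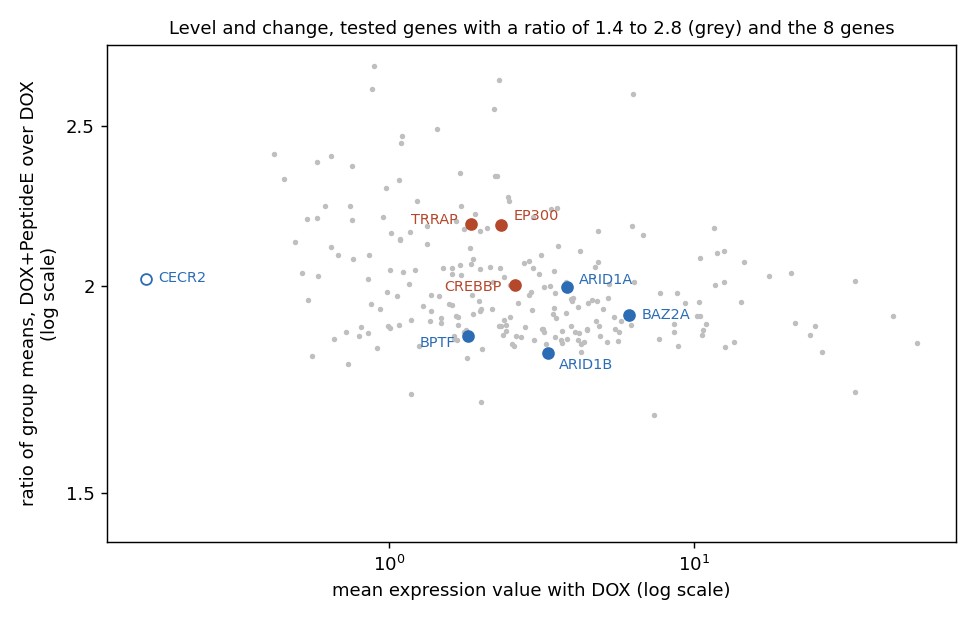
Mean expression value with DOX (horizontal, log scale) against the ratio of group means, DOX+PeptideE over DOX (vertical, log scale), for tested genes with a ratio of 1.4 to 2.8 (grey), the 3 coactivators (red) and the 5 remodelers (blue; CECR2, below the filter, is open). The 8 genes lie between 1.82 and 2.18, within the band of the other genes listed higher.

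The authors' fold changes were smaller than the ratios of the deposited values in all 8 genes. With library factors fitted so that both scales match, the ratios of means were 1.49 to 1.78 over the 8 genes, and limma gave the 7 tested genes log2 fold changes of 0.43 to 0.59. The median log2 fold change of all tested genes moved from -0.22 to -0.38 with these factors, and to -0.51 when each library was centred on its median. Limma called 355 genes as deposited, 66.8% of them higher. With fitted factors it called 474 (47.3% higher), and with centred libraries 438 (42.9% higher). All 7 tested genes stayed higher and past the threshold under both scalings.

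The spread among the peptide E libraries was larger in the coactivators than in the remodelers. The choice of the genes used this spread in so far as the authors' p-values depend on it. Peptide E replicate 3 over replicate 1 was 2.41 for EP300, 1.92 for CREBBP and 1.90 for TRRAP. Among the remodelers it was 1.78 for BAZ2A, 1.72 for BPTF, 1.71 for ARID1A, 1.42 for ARID1B and 1.30 for CECR2. All 3 coactivators thus lay above all 5 remodelers, although TRRAP and BAZ2A were close and each value rests on a single pair of libraries. With the fitted library factors, which lower each of these ratios by the same proportion, the coactivators stood at 1.56 to 1.98 and the remodelers at 1.07 to 1.47. No test was made of this difference, as genes are not replicates.

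Over the 242 tested genes listed higher the median of this ratio was 1.71, with quartiles of 1.48 and 1.89. EP300 lay near the top, with 5 genes above it, while CREBBP and TRRAP had 54 and 59 genes above them, ARID1A and BPTF stood at the median, and ARID1B had 195 above it. The coefficient of variation across the peptide E libraries was 41.1% for EP300, 31.3% for CREBBP and 30.9% for TRRAP, and 18.1% to 27.8% for the remodelers, beside a median of 26.7% over the tested genes listed higher. Across the DOX libraries it was 4.74% to 7.85% for the coactivators, 4.63% for BAZ2A and 10.6% to 22.5% for ARID1A, BPTF, ARID1B and CECR2. The median over the tested genes listed higher was 9.32% there. The coactivators and BAZ2A were therefore the genes with the tightest DOX values among the 8.

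**Figure D3:**
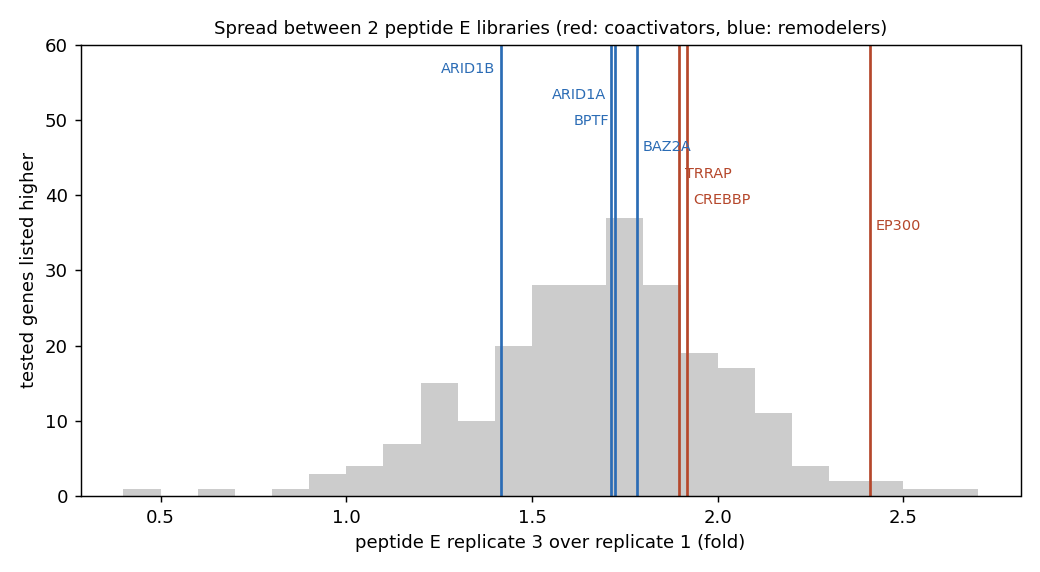
Number of tested genes listed higher (vertical) by the fold of peptide E replicate 3 over replicate 1 (horizontal), with the 3 coactivators (red lines) and the 4 tested remodelers (blue lines). EP300 at 2.41 stands in the upper tail, the other coactivators at 1.90 and 1.92, and the remodelers from 1.42 to 1.78.

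In the values as deposited, replicate 3 held the highest peptide E value in all 8 genes, beside 89.7% of the tested genes listed higher. Replicate 1 held the lowest in 6 of them, beside 93.0% of those genes, and the exceptions were ARID1B and CECR2, in which replicate 2 was lowest by 0.17 and 0.02. The order was thus that of most genes listed higher. It depends in part on the scaling of the libraries. The fitted library factors were 0.977, 0.959 and 0.803 for peptide E replicates 1 to 3, lowest for replicate 3. With these factors BPTF was highest in replicate 2 instead, and BAZ2A was nearly equal in replicates 2 and 3. Of the 257 tested genes listed lower, replicate 3 was the highest peptide E library in 26.1% and replicate 1 in 51.4%. In peptide E replicate 1 the fold over the DOX mean was 1.27 for EP300, 1.31 for BPTF, 1.36 for each of CREBBP and BAZ2A, 1.48 for ARID1A, 1.5 for TRRAP, 1.62 for ARID1B and 1.88 for CECR2. Replicate 3 had 3.06 for EP300, 2.85 for TRRAP and 2.61 for CREBBP, against 2.26 to 2.53 for the remodelers. EP300 therefore had the lowest fold of the 8 genes in replicate 1 and the highest in replicate 3.

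**Figure D4:**
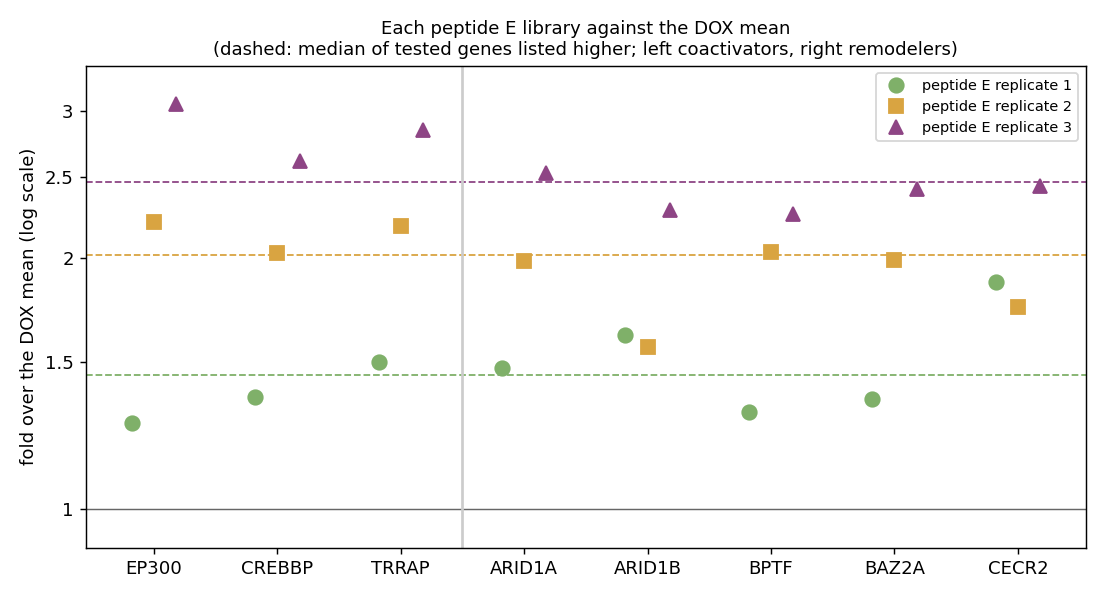
Fold of each peptide E library over the DOX mean (vertical, log scale) for the 8 genes, with dashed lines for the median of the tested genes listed higher in the same library (1.45, 2.02 and 2.47). EP300 ranges from 1.27 to 3.06, and ARID1B and CECR2 are the genes in which replicate 2 lies below replicate 1.

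The DOX libraries showed no order common to all 8 genes. Replicate 3 was the lowest for EP300, CREBBP, ARID1A and BPTF, replicate 1 for TRRAP, ARID1B and CECR2, and replicate 2 for BAZ2A. Among the 242 tested genes listed higher, DOX replicate 3 was the lowest in 126 and replicate 2 the highest in 136. Deviations from the group means on the log2(value + 1) scale, taken over the 6 libraries and given as a description, correlated at Pearson r = 0.99 between EP300 and CREBBP, 0.98 between EP300 and TRRAP and 0.96 between CREBBP and TRRAP. Pairs of a coactivator and a remodeler other than ARID1B reached similar values, from 0.85 for TRRAP and BPTF to 0.97 for CREBBP and ARID1A, so the coactivators did not form a group of their own by this measure. For ARID1B the r with the other 6 tested genes was 0.25 to 0.71, and the r between ARID1A and ARID1B was 0.43. These values share the 6 libraries and are set mostly by the 3 peptide E libraries, which vary more than the DOX libraries. Within the 3 DOX libraries alone the pairs ranged from -0.997 (ARID1A and ARID1B) to 0.987 (CREBBP and BPTF), with -0.52 for CREBBP and TRRAP. Over 3 libraries r easily comes near -1 or 1. EP300 with BAZ2A (-0.993) and CREBBP with ARID1B (-0.964) were nearly as low, so ARID1A and ARID1B were not set apart from other pairs.

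Ratios between related genes within a library remove any scaling of that library. EP300 over CREBBP was 0.843, 0.951 and 0.902 in the DOX libraries and 0.836, 0.977 and 1.05 in peptide E replicates 1 to 3. The groups overlapped, and peptide E replicate 3 was the only one of the 6 libraries with a higher value for EP300 than for CREBBP. ARID1A over ARID1B was 1.5, 1.18 and 0.877 with DOX and 1.05, 1.46 and 1.28 with peptide E. This ratio varied more within the DOX group than within the peptide E group, and the peptide E values lay inside the DOX range. The sum of the coactivators over the sum of the remodelers was 0.432, 0.473 and 0.428 with DOX and 0.421, 0.500 and 0.524 with peptide E, again with overlap. TRRAP over CREBBP stood at 0.631, 0.742 and 0.784 with DOX and at 0.772 to 0.790 in the 3 peptide E libraries.

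**Figure D5:**
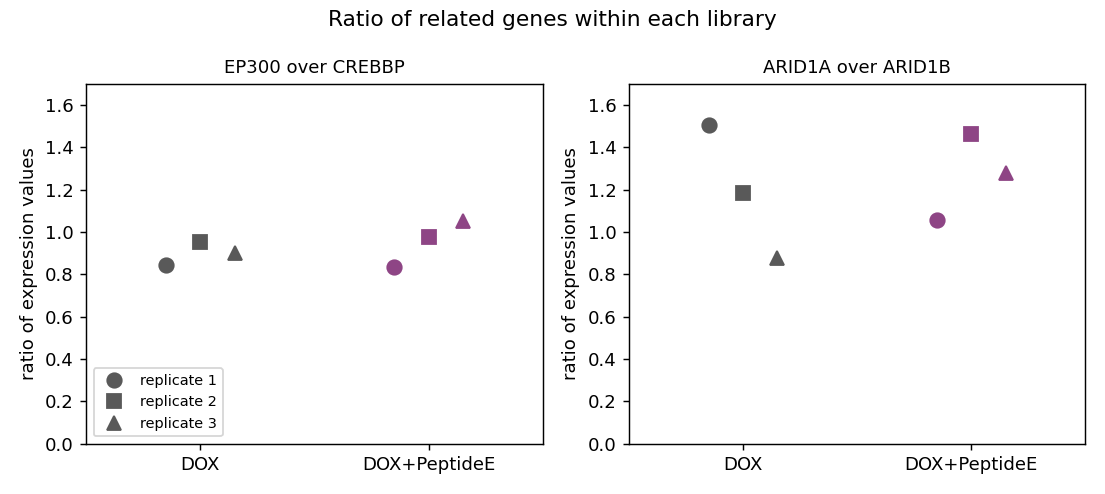
Ratio of expression values (vertical, from 0) of EP300 over CREBBP and of ARID1A over ARID1B in each of the 3 DOX and 3 DOX+PeptideE libraries; symbols mark the replicate number. Both ratios overlap between the groups, and ARID1A over ARID1B runs from 0.877 to 1.5 among the DOX libraries.

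Other genes of the same machinery were looked up from 6 lists with 207 symbols. Of these MED13L was listed, from the list of bromodomain readers and Mediator subunits with its 44 symbols. No symbol was listed from the 53 acetyltransferases and their subunits, the 28 other SWI/SNF subunits, the 12 other ISWI subunits, the 39 CHD, INO80 and SRCAP remodelers or the 31 deacetylases and corepressors. Their values were not analysed here, and nothing is known from the table about whether they differed.

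MED13L, a subunit of the kinase module of Mediator, had expression values of 1.46, 1.41 and 1.14 with DOX and of 1.7, 3.05 and 3.97 with peptide E. Its groups did not overlap, and replicate 1 was again the lowest peptide E library and replicate 3 the highest. Its ratio of means was 2.17, and it passed limma's threshold as higher. Peptide E replicate 3 over replicate 1 was 2.34 for MED13L, near the value of EP300.

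The genes with the profile most like the mean of the 7 tested genes over the 6 libraries were CLASP1, a microtubule-binding protein, PCDH7, a protocadherin, AHNAK, a giant scaffold protein, NOTCH2, a signalling receptor, and CBL, a ubiquitin ligase. Their Pearson r was above 0.998, but the median r over the other 235 tested genes listed higher was already 0.98. By deviations within the groups alone the nearest genes were COL12A1 and FBN1, both of the extracellular matrix, HEG1, a membrane protein, PCDH7 and AAK1, a kinase of endocytosis, with r of at least 0.997 against a median of 0.94. Over 6 libraries such values describe a pattern that most of the genes listed higher share. An 18S ribosomal RNA locus, LOC111557932, moved with them too, at 2.12, 2.29 and 2.20 with DOX and 3.53, 4.8 and 4.97 with peptide E, and its part in the results was not tested.

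Compared with genes of like level that were also listed higher, the 7 tested genes did not stand apart in size. The same limits on fold change and p chose both sets, so their likeness in size was in part fixed in advance. Of the 182 other tested genes with a DOX mean between 1.82 and 6.11, the range of the 7 genes, 105 were listed higher. The median ratio of means of those 105 was 1.94 and their median of peptide E replicate 3 over replicate 1 was 1.66, beside 2.0 and 1.78 for the 7 genes.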

How the data were processed

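PolyA RNA-seq libraries were sequenced as pairs of 150 bp. FastQC 0.11.9 and fastp 0.19.5 are named in the submitters' processing notes, while aligner, build and annotation are unstated (not given in the sources used here). For each gene and library the deposited table holds 1 expression signal, computed by the authors, whose unit (TPM or FPKM) is not stated. It also holds the authors' fold change, its log2 value (log2 fold change) and their p-values. Tested on the table, the largest unadjusted p listed is 0.0498 and the smallest fold change in either direction 1.5. Depth is unknown, so precision rests on 3 libraries per group. The series text calls them biological replicates without saying how cultures were kept apart, so p-values measure only the spread between these libraries, which may be technical.

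Values were transformed as log2(value + 1). The 499 genes whose mean reached 1 in either group or both were fitted with limma (version 3.58.1, R 4.3.3). The fit used a variance trend and Benjamini-Hochberg adjustment over all 499 (threshold 0.05). It was tested on simulated data with noise drawn independently for each gene and library. The deposited genes share shifts between libraries and were selected by the contrast, so that simulation does not bear on the calls made here. The 8 genes and the lists of related genes were chosen with earlier results of these data known. Named were the 8 genes, listed genes of the related lists (apart from a gene that is not reported here, nor counted among them), and the 5 genes with a symbol of highest r by each of the 2 measures of likeness. LOC111557932, S100A4, KRT7, KRT18, KRT19, AQP1 and HAVCR1 were named outside this rule, after their values were seen. Alternatives were pseudocounts of 0.1 and 5, no filter, median-centring, library factors fitted to the authors' fold changes in 196 genes (both group means 5 or more), a replicate block, and each library left out. A planned description of protein length was not made.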

Additional observations from a re-analysis of the deposited data

How the results depend on the processing

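The 7 tested genes were higher with peptide E in limma under all 12 alternative settings, with log2 fold changes from 0.29 to 1.09 (BPTF at a pseudocount of 5 and EP300 without peptide E replicate 1). The median over the genes was 0.79, moved to 0.41 at a pseudocount of 5, which by construction shrinks changes of low genes, and ranged from 0.57 to 0.98 with 1 library left out. The number passing was 7 and ranged from 4 to 7 with 1 library left out. Without peptide E replicate 2 the calls of EP300 (log2 fold change 0.77), CREBBP (0.73) and BPTF (0.56) were lost in limma, and that of BPTF also without DOX replicate 3 (0.55). The cause was not tested. In the same fits all genes past the threshold numbered 180 to 413, against 355, and those called higher 142 to 240, against 237. Both low ends came without peptide E replicate 2. Without the filter CECR2 was tested and passed (log2 fold change 0.19). In that fit 442 of 633 genes passed, 279 of them as higher. Nothing is read from the call of CECR2, as its values are very low and the same contrast selected the table. The values gave no clear sign that replicate numbers pair the libraries, a question that 3 libraries per group cannot settle. Deviations of same-numbered libraries correlated at 0.34, -0.04 and -0.09 over 499 genes. The libraries numbered 1 correlated best with each other, but DOX replicate 2 correlated best with peptide E replicate 3, at 0.36. With the replicate block limma called 362 genes and the same number of the 7 genes. Depth is unknown for every library.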
